A study of Mus musculus with 18 samples.

Results

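Enzymes that make superoxide or pass single electrons to paraquat, together with Nrros, a regulator of the phagocyte oxidase, were followed in the mouse cerebellum. The members were taken by gene symbol from the array's platform annotation. Of 8 genes sought (Por, Cyb5r3, Nos1, Xdh, Aox1, Cyba, Cybb and Nrros), 7 were found, with 11 of the 20380 probe sets that carry a single symbol. They are 7 of 12393 genes. Por, the NADPH-cytochrome P450 reductase, had 0 probe sets under its symbol and was not analysed here.

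Each of 6 groups held 3 Affymetrix arrays, 18 in all, and each array was a pool of equal RNA amounts from 3 mice, so replicate error here means differences among pools. The mice were adult males of 80 ± 5 days. They were wild-type, ApoD knock-out, or transgenic for human apolipoprotein D (ApoD), a secreted lipid-binding protein. In the transgenic mice ApoD was over-expressed in neurons, per the series description, and the promoter is not given in the sources used here. Within each genotype, 9 mice received paraquat at 30 mg/kg intraperitoneally in 200 µl of saline and 9 received saline alone, and the cerebellum was taken after 6 h. The titles name only the arrays of paraquat-injected mice, and the others were taken as saline from the treatment protocol.

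Paraquat is a bipyridyl herbicide that accepts a single electron from flavoenzymes and hands it to oxygen, which yields superoxide and frees paraquat for the next cycle. The enzymes known to drive this cycle in cells include Por, the cytochrome b5 reductase Cyb5r3 and the nitric oxide synthases, whose reductase part resembles Por. Superoxide also has enzymatic sources of its own. Xdh, xanthine dehydrogenase, and Aox1, an aldehyde oxidase, are molybdenum enzymes that can pass electrons to oxygen. The phagocyte NADPH oxidase, which in brain is best known from microglia, makes superoxide through the catalytic subunit Cybb and its membrane partner Cyba. Nrros is a leucine-rich repeat protein of phagocytes and microglia, described as lowering Cybb protein and as an anchor of latent TGF-beta.

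All levels are log2 values after RMA (robust multi-array average) as deposited, and each is printed in the order of replicates 1, 2 and 3, which have no ranking. A gene was tested when its brightest probe set reached the array's 40th percentile on at least 3 arrays, which 8320 genes did. Calls were made where the p adjusted by Benjamini-Hochberg was under 0.05. Of the members, 6 were tested. Cybb did not pass, and Nrros passed through the paraquat arrays: it reached the 40th percentile on 0 of 3 wild-type saline, 0 of 3 knock-out saline, 2 of 3 transgenic saline and 3 of 3 arrays of each paraquat group. As a check of genotype, the mouse Apod probe set read 12.38 to 12.76 on wild-type arrays, 8.22 to 9.83 on knock-out arrays and 12.13 to 12.35 on transgenic arrays. Whether it reads the human transgene is not given in the sources used here. The array of knock-out paraquat replicate 2 stood apart, with a median of 6.98 against 7.10 to 7.15 on the other arrays. In whole-tissue RNA, more cells of a type and more RNA per cell cannot be told apart.

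Nrros, Xdh and Aox1 were higher 6 h after paraquat in wild-type cerebellum, by 3.28-fold, 2.97-fold and 1.52-fold. These were 3 of the 6 tested members, beside 1.53% of all tested genes called higher and 2% called in either direction. The oxidase subunit Cyba and the reductases Cyb5r3 and Nos1 were not called in that comparison, and Cybb was not tested. In knock-out mice 2 of 6 members, Nrros and Xdh, were called, both higher, beside 2.26% of all genes in either direction and 0.793% called higher. There the calls over all genes were 66 higher and 122 lower, and 128 and 127 after quantile normalisation of the arrays. In transgenic mice 0 of 6 were called, beside 0 of all genes, and 2 members, Xdh (0.00508) and Nrros (0.0203), had an unadjusted p under 0.05. There, limma gave 118 genes an unadjusted p under 0.05, and weighting the arrays by their quality gave 409 genes called.

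**Figure D1:**
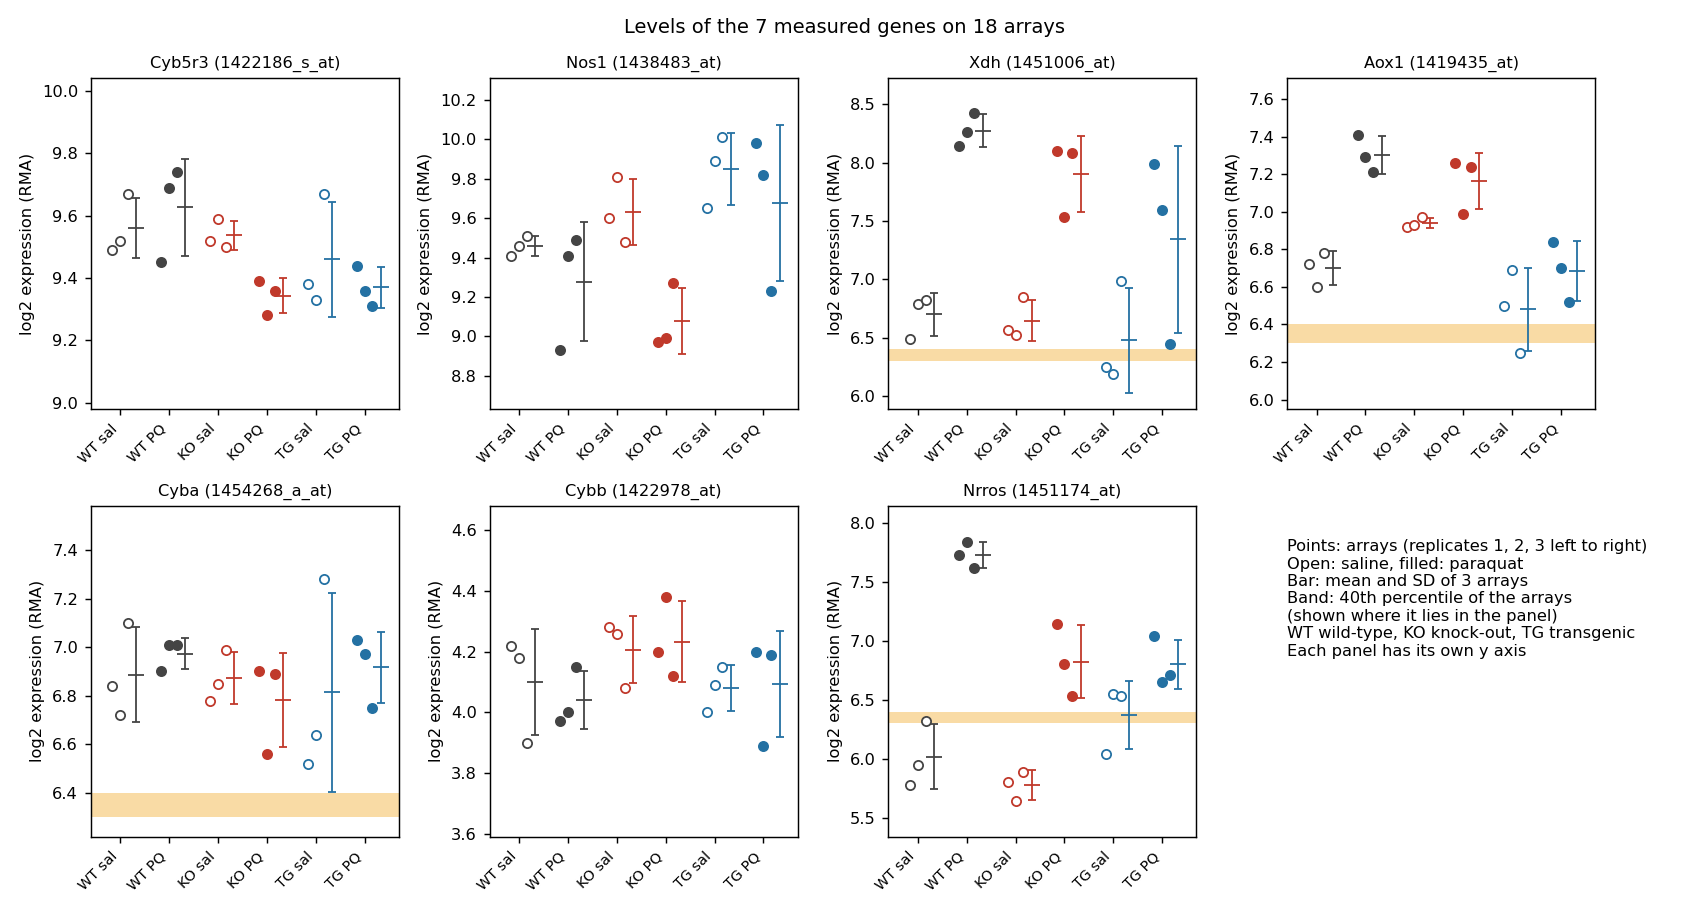
Log2 RMA levels (y axis, a separate scale per panel) of the 7 measured genes on the 18 arrays, grouped by genotype and treatment on the x axis, with open points for saline, filled points for paraquat, bars for the mean and SD of 3 arrays and a band for the arrays' 40th percentile where it lies in the panel. The 3 wild-type paraquat arrays sit above every other array for Nrros (7.62 to 7.84) and Xdh (8.14 to 8.42), while Cybb lies between 3.89 and 4.38 throughout.

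The promoters of Nrros and Aox1 are shown because both genes rose with paraquat in wild-type mice. They are the 250 bases before the annotated start, 5′ to 3′ on the gene's strand, from RefSeq on GRCm38.p6, where 6 of the 8 members had an entry. Capitals mark a match to any of 3 motifs searched on both strands.
Nrros promoter, GRCm38.p6 chr16:32165595-32165844, minus strand: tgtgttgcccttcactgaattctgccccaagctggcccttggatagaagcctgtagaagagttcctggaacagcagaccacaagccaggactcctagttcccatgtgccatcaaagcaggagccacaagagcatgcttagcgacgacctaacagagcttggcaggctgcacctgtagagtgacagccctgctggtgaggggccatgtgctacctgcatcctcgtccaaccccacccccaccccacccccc
Aox1 promoter, GRCm38.p6 chr1:58029719-58029968, plus strand: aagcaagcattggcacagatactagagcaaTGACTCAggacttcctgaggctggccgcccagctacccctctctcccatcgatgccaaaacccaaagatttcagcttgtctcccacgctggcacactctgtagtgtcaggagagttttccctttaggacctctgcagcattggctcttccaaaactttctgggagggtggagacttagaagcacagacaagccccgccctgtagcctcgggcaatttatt
The motifs were the AP-1 site TGANTCA, the core of the antioxidant response element TGACNNNGC and the PU.1 core GAGGAA. The first 2 can overlap in sequence. Of 32851 promoters of this length, 6.75% held the AP-1 site, 10.2% the antioxidant core and 23.3% the PU.1 core. The Nrros window held no match. The Aox1 window held TGACTCA, an AP-1 site that starts 220 bases before the start. Among the other members, the Cybb window held TGAATCA 139 bases before the start and the Nos1 window held the PU.1 core on the reverse strand, TTCCTC, 20 bases before the start. The windows of Por and Cyba held none. A match is a description of these letters only.

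Nrros (probe set 1451174_at), the regulator of the oxidase, showed the largest rise among the members in wild-type mice. It read 5.78, 5.95 and 6.32 in wild-type saline and 7.73, 7.84 and 7.62 in wild-type paraquat. The groups did not overlap, and the change was 1.71 (SE 0.17, adjusted p = 3.9e-06), the 6th smallest p of 8320 genes. In knock-out mice Nrros read 5.80, 5.64 and 5.89 under saline and 7.14, 6.80 and 6.53 under paraquat. These groups were also apart, by 1.05 (SE 0.17, adjusted p = 0.00143). In transgenic mice it read 6.04, 6.55 and 6.53 under saline and 7.04, 6.65 and 6.71 under paraquat. The transgenic groups did not overlap either, but the lowest paraquat array lay close above the highest saline array, and the difference of 0.42 (SE 0.17, 95% confidence interval 0.07 to 0.78) had an adjusted p of 1.

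The genotypes differed in their Nrros level mainly under paraquat. By mean level, wild-type paraquat (7.73 ± 0.11, SD, n = 3) came first, followed by knock-out paraquat (6.82 ± 0.31) and transgenic paraquat (6.80 ± 0.21). Transgenic saline (6.38 ± 0.29), wild-type saline (6.02 ± 0.27) and knock-out saline (5.78 ± 0.13) followed. Among neighbours in that order, wild-type paraquat stood clear of knock-out paraquat, and transgenic paraquat stood clear of transgenic saline. The other neighbouring groups overlapped. Under paraquat, Nrros was lower in transgenic than in wild-type mice by a log2 difference of -0.93 (SE 0.17, adjusted p = 0.00121). In knock-out against wild-type the difference under paraquat was -0.91 (SE 0.17, adjusted p = 0.0528), which missed the threshold although it ranked 4th of all genes by p. That comparison had 0.012% of genes called. Nrros was called in it without knock-out paraquat replicate 1 (-1.07, adjusted p = 0.0128) and with array weights (-0.71, adjusted p = 0.0193), settings that called 12 and 68 genes in all, against 1.

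The paraquat effect on Nrros itself was smaller in transgenic than in wild-type mice, by -1.29 (SE 0.24, 95% confidence interval -1.79 to -0.79, adjusted p = 0.0264). It was the only member called for that difference, beside 0.18% of all genes, 15 genes, each with a lower effect in transgenic mice. Part of the difference lay in the saline groups, where Nrros read 0.36 higher in transgenic mice (adjusted p = 0.197). The call on the difference was lost without any single one of 9 of the 12 arrays involved, namely wild-type saline replicates 1 and 2, transgenic saline replicates 2 and 3, wild-type paraquat replicates 1, 2 and 3 and transgenic paraquat replicates 2 and 3, with adjusted p from 0.05 to 0.117 and sizes from -1.34 to -1.17. It was also lost in the fit over all 20380 probe sets without a filter on low values (adjusted p = 0.0703, beside 0.0393% of probe sets called) and with the replicate number as a block over all arrays (adjusted p = 0.0506). For knock-out minus wild-type the difference was -0.67 (SE 0.24, adjusted p = 0.868). For that difference limma called 0 genes, with 148 at an unadjusted p under 0.05, against 2 called with array weights.

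**Figure D2:**
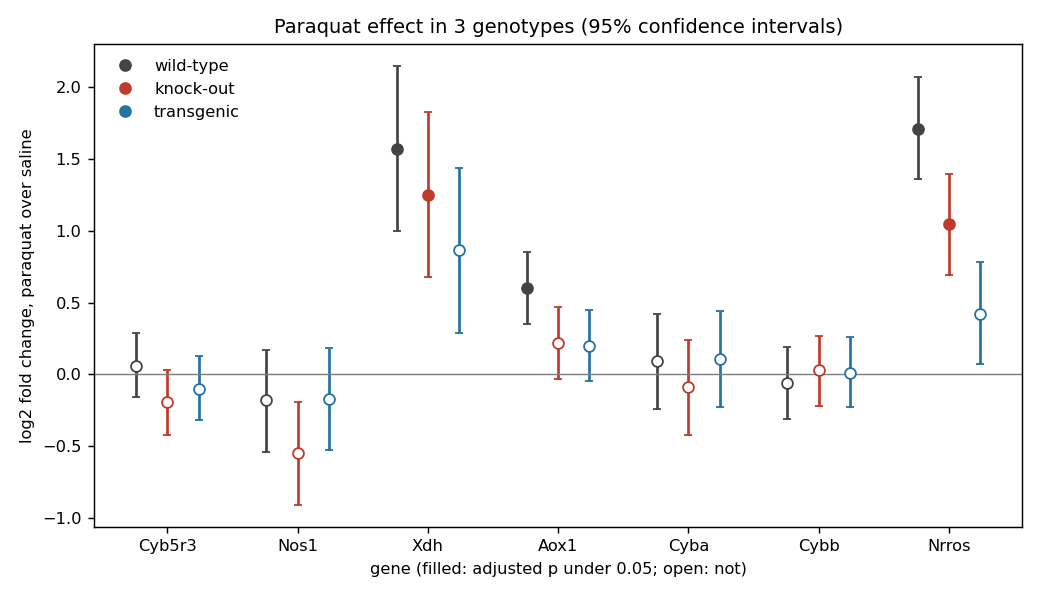
Log2 fold change of paraquat over saline (y axis) for the 7 measured genes (x axis) in wild-type, knock-out and transgenic mice, with 95% confidence intervals from the limma fit; filled points have an adjusted p under 0.05. Nrros is at 1.71, 1.05 and 0.42 and Xdh at 1.57, 1.25 and 0.87 in that order of genotypes, while the intervals of Cyba, Cybb and Cyb5r3 include 0 in every genotype.

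Xdh (1451006_at), which makes uric acid in purine breakdown, rose in wild-type and knock-out mice. It read 6.49, 6.79 and 6.82 in wild-type saline and 8.14, 8.26 and 8.42 in wild-type paraquat, a change of 1.57 (SE 0.28, adjusted p = 0.00279). In knock-out mice it read 6.57, 6.52 and 6.85 under saline and 8.10, 7.53 and 8.08 under paraquat. Neither pair of groups overlapped, and the knock-out change was 1.25 (SE 0.28, adjusted p = 0.0177). That call was lost without knock-out saline replicate 1 (adjusted p = 0.0875), knock-out saline replicate 2 (0.107) or knock-out paraquat replicate 1 (0.0578), and in the fit over all probe sets (0.0549, beside 0.643% called), with log2 changes of at least 1.15 in each.

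In transgenic mice the Xdh outcome hung on 1 array. The saline arrays read 6.25, 6.19 and 6.99 and the paraquat arrays 7.99, 7.59 and 6.45. Replicates 1 and 2 under paraquat were near the knock-out level, whereas replicate 3 lay within the saline range. The difference was 0.87 (SE 0.28, 95% confidence interval 0.29 to 1.44, adjusted p = 1). Without transgenic paraquat replicate 3 it was 1.31 (SE 0.21, adjusted p = 0.0135), and with array weights 1.26 (adjusted p = 8.1e-04). Under paraquat, Xdh was lower in transgenic than in wild-type mice by -0.93 (SE 0.28, adjusted p = 0.0242). Without the same array this became -0.48 (adjusted p = 0.133), and the call was also lost without wild-type paraquat replicate 1 (0.0514), 2 (0.0678) or 3 (0.0745). The paraquat effect on Xdh differed by -0.70 in transgenic minus wild-type (SE 0.39, adjusted p = 1) and by -0.32 in knock-out minus wild-type (SE 0.39, adjusted p = 0.868), so neither difference was called. By mean level the order was wild-type paraquat (8.27 ± 0.14, SD, n = 3), knock-out paraquat (7.90 ± 0.32), transgenic paraquat (7.34 ± 0.80), wild-type saline (6.70 ± 0.19), knock-out saline (6.65 ± 0.18) and transgenic saline (6.48 ± 0.45). Only the first of these neighbouring pairs did not overlap. Averaged over the genotypes the change was 1.23 (SE 0.16, adjusted p = 5.6e-05). In that average 3 of 6 members were called, all higher, with Nrros at 1.06 and Aox1 at 0.34, beside 2.01% of genes called higher and 4.89% in either direction.

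Aox1 (1419435_at), a broad oxidase of aldehydes and nitrogen heterocycles, changed less than Xdh. It read 6.72, 6.60 and 6.78 in wild-type saline and 7.41, 7.29 and 7.21 in wild-type paraquat, without overlap. The change was 0.60 (SE 0.12, adjusted p = 0.00753). The call was lost without wild-type saline replicate 2 (0.55, adjusted p = 0.0639) or wild-type paraquat replicate 1 (0.55, adjusted p = 0.0569). In knock-out mice Aox1 read 6.92, 6.93 and 6.97 under saline, above every wild-type saline array, and 7.26, 6.99 and 7.24 under paraquat. The knock-out paraquat effect of 0.22 (SE 0.12, adjusted p = 0.341) and the knock-out against wild-type difference under saline of 0.24 (SE 0.12, adjusted p = 1) were not called in the main fit. With array weights both were, at 0.31 (adjusted p = 0.00107) and 0.25 (adjusted p = 0.0222).

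By group mean, Aox1 was lowest in transgenic saline (6.48), and transgenic paraquat (6.68) was level with wild-type saline (6.70). Transgenic arrays read 6.50, 6.69 and 6.25 under saline and 6.84, 6.70 and 6.52 under paraquat. These groups overlapped, and the effect was 0.20 (SE 0.12, adjusted p = 1). Under paraquat all transgenic arrays lay below all wild-type arrays, with a difference of -0.62 (SE 0.12, adjusted p = 0.00184). Under saline the difference of -0.22 (SE 0.12, limma adjusted p = 0.268) was not called. In the order of group means, wild-type paraquat and knock-out paraquat overlapped at the top, knock-out paraquat, knock-out saline and wild-type saline were each apart from the next, and wild-type saline overlapped with both transgenic groups. The paraquat effect on Aox1 differed by -0.40 in transgenic minus wild-type (SE 0.17, adjusted p = 0.948), which array weights called at -0.53 (adjusted p = 0.00566).

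Under paraquat, then, 3 of 6 tested members (Nrros, Xdh and Aox1) were lower in transgenic than in wild-type mice. The background in this comparison was wide, with 14.3% of all genes called lower and 19% in either direction. The calls were 386 higher and 1192 lower, and 844 and 1258 after quantile normalisation. It uses the same wild-type paraquat arrays as the paraquat effect in wild-type mice and the difference of effects, so these are not separate pieces of evidence. Under saline 0 of 6 members were called between transgenic and wild-type mice, beside 6.36% of genes. The smallest unadjusted p-values among the members there were 0.0338 for Nos1 and 0.0457 for Nrros, and Nrros was called without transgenic saline replicate 1 (0.53, adjusted p = 0.0458). Between knock-out and wild-type mice under saline 0 of 6 were called, beside 0.024% of genes (2 genes, against 241 with array weights and 108 when only these groups were fitted), and their smallest unadjusted p was 0.0609, for Aox1.

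**Figure D3:**
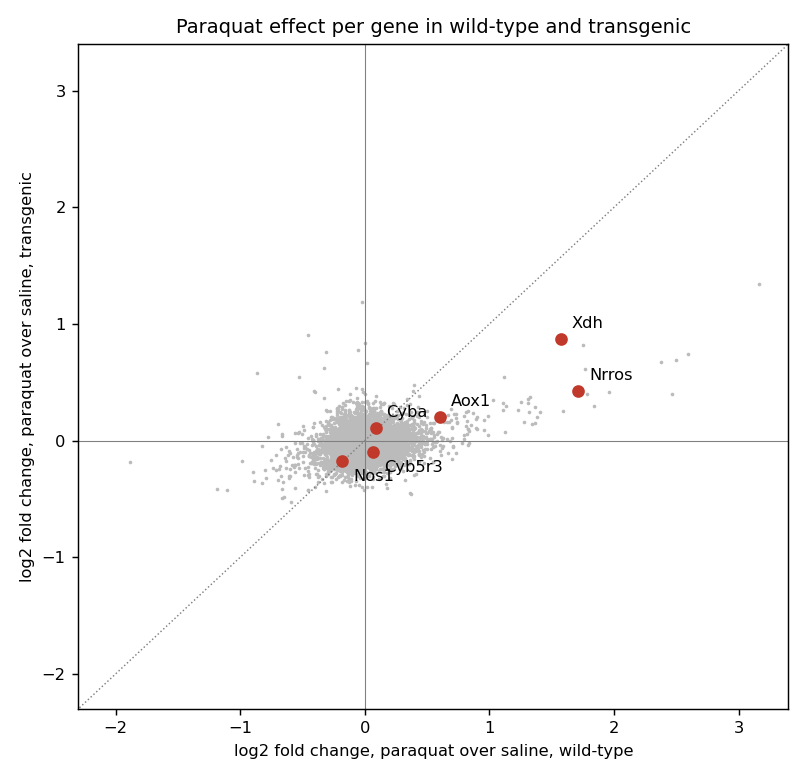
Log2 fold change of paraquat over saline in wild-type (x axis) and transgenic mice (y axis) for the 8320 tested genes, with the 6 tested members in red and a dotted line where both effects are equal. Nrros (1.71 and 0.42), Xdh (1.57 and 0.87) and Aox1 (0.60 and 0.20) lie below the line, and Cyb5r3, Cyba and Nos1 lie within the bulk of genes.

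Of the subunits of the NADPH oxidase, Cyba was not called in any comparison, and Cybb lay under the filter and was not tested in the gene fit. Cyba (1454268_a_at) read 6.84, 6.72 and 7.10 in wild-type saline and 6.90, 7.01 and 7.01 in wild-type paraquat. It read 6.78, 6.85 and 6.99 in knock-out saline and 6.90, 6.56 and 6.89 in knock-out paraquat. In transgenic mice it read 6.52, 6.64 and 7.28 under saline and 7.03, 6.97 and 6.75 under paraquat. All groups overlapped within their genotype. The paraquat effect was 0.09 (95% confidence interval -0.24 to 0.42) in wild-type, -0.09 (-0.42 to 0.24) in knock-out and 0.11 (-0.23 to 0.44) in transgenic mice. These intervals leave out a change of the size of Xdh's but not a small one.

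Cybb (1422978_at) was at the bottom of the signal range. Its 18 values lay between 3.89 and 4.38, which is between the 4.22th and 10.9th percentiles of the probe sets on their arrays, and 0 of 18 reached the 40th. At such a level the array shows no order between groups, and absence of Cybb RNA cannot be told from poor probes. The fitted paraquat effects, from -0.06 to 0.03, describe values near the floor.

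Nrros thus rose on arrays where Cybb stayed near the floor, and the microglia that carry both genes were followed through 15 markers on the array. Their mean log2 level was 7.36 to 7.44 on wild-type saline arrays and 7.30 to 7.33 on wild-type paraquat arrays. It was 7.37 to 7.42 and 7.16 to 7.24 in knock-out mice, and 7.19 to 7.43 and 7.16 to 7.32 in transgenic mice. Of 12 tested markers, 0 rose and 1 fell with paraquat in wild-type mice: Cx3cr1, the fractalkine receptor, by -0.75 (adjusted p = 0.0152). Over all 8320 genes, 127 were called higher and 39 lower there. The receptor P2ry12 was at -0.53 (adjusted p = 0.258), and Csf1r, the growth factor receptor that microglia depend on, was at -0.02 (adjusted p = 0.998). In knock-out mice 1 of the 12, Cx3cr1, fell, by -0.91 (adjusted p = 0.00415), beside 122 of 8320 genes called lower. Averaged over genotypes both Cx3cr1 (-0.61, adjusted p = 3.8e-04) and P2ry12 (-0.44, adjusted p = 0.0268) fell, beside 240 of 8320 genes called lower. In transgenic against wild-type mice under paraquat, 3 of 12 microglia markers were lower and 0 higher, beside 14.3% of all genes called lower. These were the protease Ctss (-0.56, adjusted p = 0.00436) and the complement subunits C1qa (-0.37, adjusted p = 0.0309) and C1qb (-0.35, adjusted p = 0.0497). The median of the list was -0.19, beside -0.06 over all genes, and Ctss was also lower under saline (-0.51, adjusted p = 0.0214).

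Markers of other phagocytes and vessels were followed in the same way. The 11 markers of perivascular macrophages and monocytes averaged 5.71 to 5.88 in wild-type saline and 5.73 to 5.77 in wild-type paraquat, and 5.45 to 5.46 and 5.52 to 5.55 in the transgenic groups. Under paraquat 2 of 4 tested markers were lower in transgenic mice, Lyz2 (-0.63, adjusted p = 0.0103) and H2-Aa (-0.69, adjusted p = 0.00763), beside 14.3% of all genes called lower. Under saline 3 of 4 were lower, H2-Aa (-1.16), Cd74 (-0.80) and Lyz2 (-0.69), beside 6.36% of all genes called in either direction. The 11 markers of neutrophils and blood leukocytes averaged 5.25 to 5.89 in wild-type saline and 5.26 to 5.40 in wild-type paraquat, and only 1 of them was tested. Of 9 tested endothelial markers, 6 were not called with paraquat in wild-type mice, where 2% of all genes were called in either direction. Cldn5 (-0.67) and Tek (-0.83) fell and the glucose transporter Slc2a1 rose (0.81, adjusted p = 0.019). Choroid plexus markers were lower in transgenic saline, where 5 of 5 tested were called, beside 6.36% of all genes in either direction. The mean of 6 ran from 6.23 to 7.35 there, against 8.24 to 8.47 in wild-type saline. Under paraquat 2 of 5 were lower in transgenic mice, Kl (-1.04, adjusted p = 0.0392) and Otx2 (-0.68, adjusted p = 0.0155), beside 14.3% of all genes called lower. The list median was -0.70. In that comparison 5 of 9 endothelial markers were called, beside 19% of all genes in either direction. Cldn5 (0.66) and Kdr (0.47) were higher and Slc2a1 (-0.84), Abcb1a (-0.75) and Slco1a4 (-0.43) lower. Markers of the cerebellum's own neurons were high on every array, with means of 10.26 to 10.57 for 9 granule neuron genes and 11.53 to 11.97 for 7 Purkinje neuron genes. With paraquat in wild-type mice 0 of either list were called. Averaged over genotypes 2 of 9 granule neuron markers fell, beside 240 of 8320 genes called lower, and 0 of 7 Purkinje markers were called. The 2 were Neurod1 (-0.31, limma adjusted p = 0.0312) and Zic1 (-0.24, limma adjusted p = 0.0164). Of 10 tested markers of astrocytes and Bergmann glia, 0 were called with paraquat in wild-type mice. Under paraquat 3 were higher in transgenic mice, led by Gfap (0.62, adjusted p = 0.00952), beside 19% of all genes called in either direction. Under saline 2 were higher there, Gfap (0.67) and Slc1a2 (0.48), beside 6.36% of all genes called in either direction. The part of vessels, choroid plexus, granule neurons, microglia and other phagocytes in the members' changes was not tested.

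Nos1, the neuronal nitric oxide synthase, is abundant in cerebellar granule cells and interneurons, and both of its probe sets pointed the same way in transgenic mice. The brighter, 1438483_at, read 9.41, 9.46 and 9.51 in wild-type saline and 8.93, 9.41 and 9.49 in wild-type paraquat. It read 9.60, 9.81 and 9.48 in knock-out saline and 8.97, 8.99 and 9.27 in knock-out paraquat. In transgenic mice it read 9.65, 9.89 and 10.01 under saline and 9.98, 9.82 and 9.23 under paraquat. All knock-out paraquat arrays lay below all knock-out saline arrays, by -0.55 (SE 0.17, 95% confidence interval -0.91 to -0.19, adjusted p = 0.0989), which was not called. It was called without knock-out paraquat replicate 3 (-0.65, adjusted p = 0.0431) and with array weights (-0.59, adjusted p = 2.6e-04), whereas the mean of both probe sets changed by -0.17 (adjusted p = 0.642). The median of all genes was -0.09 in this comparison and -0.00 after quantile normalisation of the arrays. Averaged over genotypes the Nos1 change was -0.30 (SE 0.10, adjusted p = 0.0883), and -0.17 (adjusted p = 0.402) for the mean of both probe sets. This averaged change was called in 3 of 25 alternatives, with a lowest limma adjusted p of 0.00546.

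The dimmer Nos1 probe set, 1422949_at, separated the transgenic arrays more widely. It read 6.52, 6.62 and 6.68 in wild-type saline and 6.10, 6.68 and 6.49 in wild-type paraquat. It read 6.94, 7.31 and 8.33 in transgenic saline and 7.24, 7.36 and 7.49 in transgenic paraquat. All transgenic arrays lay above all wild-type arrays. In the fit over all probe sets, the transgenic against wild-type difference was 0.94 under paraquat (SE 0.27, adjusted p = 0.0273), beside 12.2% of probe sets called, and 0.92 under saline (SE 0.27, adjusted p = 0.0635), beside 3.52%. The first call was lost without wild-type paraquat replicate 1 (0.78, adjusted p = 0.131) or 3 (0.97, 0.0597) and without transgenic paraquat replicate 2 (0.94, 0.0705) or 3 (0.88, 0.0836). The saline difference was 0.52 (adjusted p = 0.273) without transgenic saline replicate 3, the array at 8.33, and 1.21 (adjusted p = 0.0102) without replicate 1. It was also called with the replicate number as a block (adjusted p = 0.0433). On the brighter probe set the same differences were 0.40 under paraquat (SE 0.17, adjusted p = 0.107) and 0.39 under saline (SE 0.17, adjusted p = 0.169). The one under paraquat was called without transgenic paraquat replicate 3 (0.62, adjusted p = 0.0135), after quantile normalisation (0.50, adjusted p = 0.0451) and when the probe sets were averaged (0.67, adjusted p = 0.0122). The one under saline was called in 2 of 14 alternatives (lowest limma adjusted p = 0.00583) and was 0.65 when the probe sets were averaged. In knock-out mice 1422949_at read 6.82, 6.80 and 6.88 under saline and 6.77, 7.61 and 6.77 under paraquat, a difference of 0.21 (95% confidence interval -0.35 to 0.77) against -0.55 on the brighter probe set. The value of 7.61 is from knock-out paraquat replicate 2, the array that stood apart. The paraquat arrays at 6.77 lay below all 3 saline arrays, and the difference without replicate 2 was -0.07 (SE 0.26, adjusted p = 0.985).

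**Figure D4:**
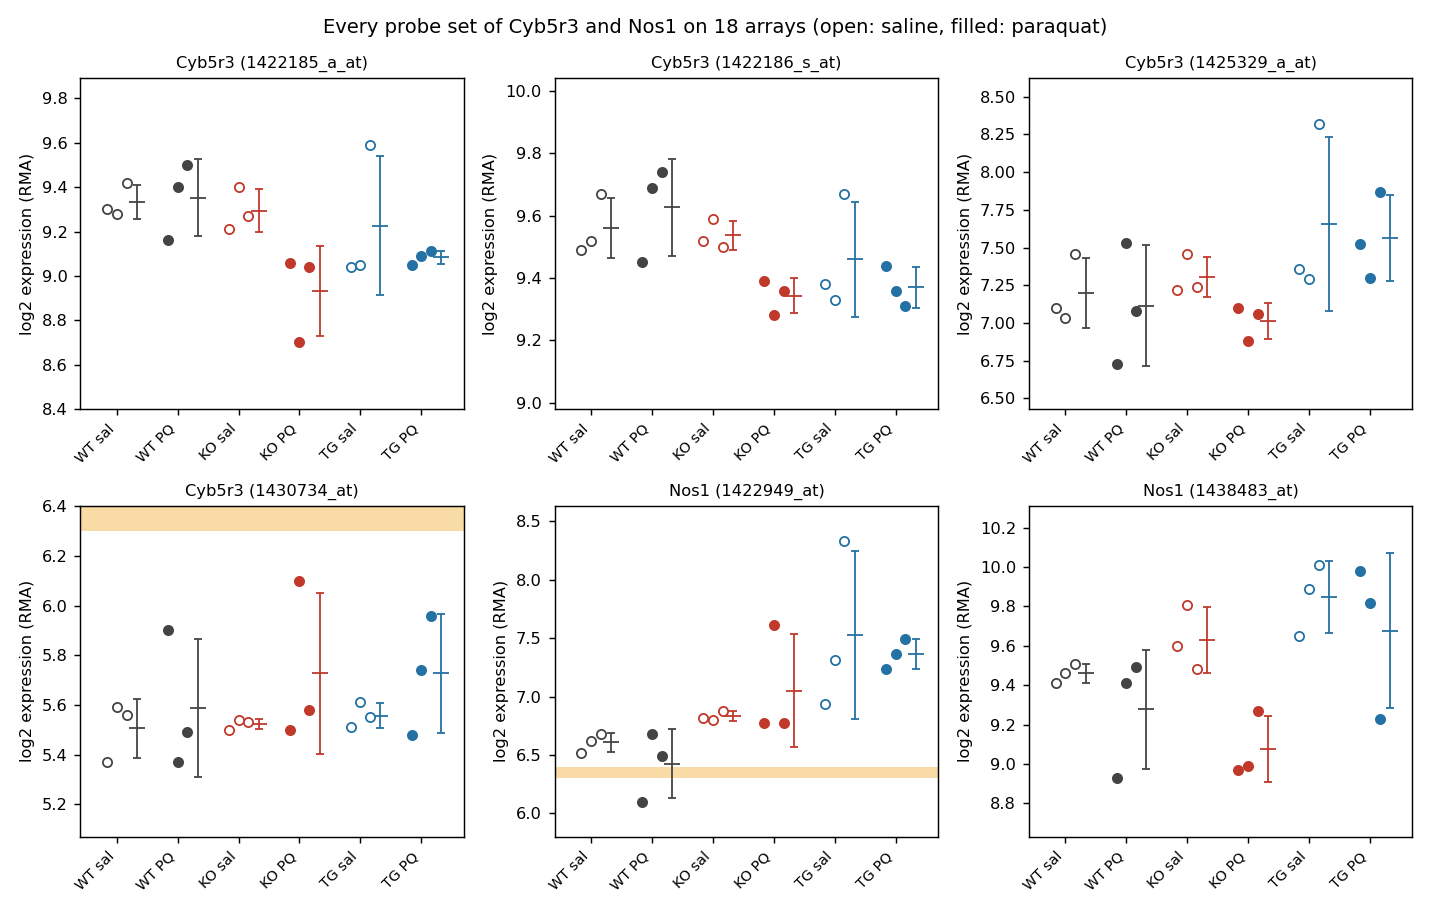
Log2 RMA levels (y axis, a separate scale per panel) of the 4 Cyb5r3 and 2 Nos1 probe sets on the 18 arrays by group (x axis), with open points for saline, filled points for paraquat and bars for the mean and SD of 3 arrays. The transgenic arrays of Nos1 1422949_at lie between 6.94 and 8.33, above the wild-type arrays, and transgenic saline replicate 3 is the highest array on that probe set and on Cyb5r3 1425329_a_at (8.32).

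Cyb5r3, which moves electrons from NADH to cytochrome b5, had 4 probe sets and no call. The brightest, 1422186_s_at, read 9.49, 9.52 and 9.67 in wild-type saline and 9.45, 9.69 and 9.74 in wild-type paraquat. It read 9.52, 9.59 and 9.50 in knock-out saline and 9.39, 9.28 and 9.36 in knock-out paraquat, and 9.38, 9.33 and 9.67 in transgenic saline and 9.44, 9.36 and 9.31 in transgenic paraquat. The suffix of this probe set marks probes that may match more than a single transcript family. Its paraquat effects were 0.06 (95% confidence interval -0.16 to 0.29) in wild-type, -0.19 (-0.42 to 0.03) in knock-out and -0.10 (-0.32 to 0.13) in transgenic mice.

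On the log2 scale both paraquat groups of the mutant genotypes had lower Cyb5r3 than wild-type paraquat, without overlap, the closest arrays being 9.44 and 9.45. By percentile within their arrays they overlapped. Wild-type paraquat stood at 82.9, 85.5 and 86.1, knock-out paraquat at 82.4, 85.2 and 81.9 and transgenic paraquat at 83.6, 82.7 and 82.7. How many of all genes lacked overlap was not counted. The log2 differences were not called. They were -0.28 in knock-out (SE 0.11, adjusted p = 0.366, and -0.15 after quantile normalisation) and -0.26 in transgenic mice (SE 0.11, adjusted p = 0.0968). The latter was called with array weights (-0.29, adjusted p = 0.00358) and without knock-out paraquat replicate 2 (-0.26, adjusted p = 0.048), an array that enters it only through the shared estimate of spread. With the mean of all 4 probe sets it was 0.02 (adjusted p = 0.933). Probe set 1422185_a_at gave similar differences of -0.42 and -0.27. The other 2 probe sets did not: 1425329_a_at was at -0.10 and 0.45, and 1430734_at, which lay between 5.37 and 6.10 and so under the 40th percentile on every array, was at 0.14 and 0.14. Over the 18 arrays the Pearson correlation of the first pair was 0.91, and that of 1422186_s_at with 1430734_at was -0.58.

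Of the other genes of the same chemistry, few were called with paraquat in wild-type mice. Over all tested genes, 1.53% were called higher there and 2% in either direction. Of 6 tested partners of the NADPH oxidase, 1 rose: Prkcd, a kinase that can phosphorylate the oxidase's cytosolic organiser, by 0.36 (adjusted p = 0.0446). Prkcd is also among the interneuron markers used here, and it rose by 0.51 in knock-out mice (adjusted p = 0.00453). Of 20 other flavin and one-electron reductases, 1 rose: Nqo1, the quinone reductase that avoids the single-electron step, by 0.41 (adjusted p = 0.0398). Of 11 genes of molybdenum enzymes and purine breakdown, 1 rose: Ada, adenosine deaminase, which supplies inosine upstream of Xdh, by 1.96 (adjusted p = 6.8e-06). In knock-out mice Ada rose by 1.59 (adjusted p = 1.1e-04). None of 13 genes of NADPH supply, 15 of superoxide and peroxide removal and 12 of nitric oxide synthesis and signalling was called in wild-type mice. The same held for 18 genes of microsomal electron transfer and 9 of the TGF-beta setting of Nrros. The medians of these 8 lists ran from -0.07 to 0.10, beside 0.02 over all genes. In knock-out mice 1 of the last 9, the ligand Tgfb2, fell by -0.63 (adjusted p = 0.0189), beside 2.26% of all genes called in either direction.

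Between transgenic and wild-type mice under paraquat the same lists gave more calls, as the background did. Over all genes, 14.3% were called lower and 19% in either direction. Of 20 flavin and one-electron reductases 5 were lower. Among them were Cryz, a quinone oxidoreductase (-0.65, adjusted p = 0.00755), Dld, the lipoamide dehydrogenase of mitochondria (-0.63, adjusted p = 0.00266), and Nqo1 (-0.41, adjusted p = 0.00894). Of 11 purine and molybdenum genes 3 were lower: Ada (-1.66, adjusted p = 5.3e-05), Adk, adenosine kinase (-0.49, adjusted p = 0.0257), and Ampd3, an AMP deaminase (-0.39, adjusted p = 0.0363). Ada was also among the 15 genes whose paraquat effect was smaller in transgenic mice (-1.55, adjusted p = 0.0264). Of 15 genes of superoxide and peroxide removal 1 was lower, the peroxidase Gpx8 (-0.70, adjusted p = 0.00248), and of 9 genes around TGF-beta 2 were lower, Ltbp3 (-0.58, adjusted p = 0.0059) and Itgav (-0.42, adjusted p = 0.0476). Of 12 nitric oxide genes 2 were lower, the cGMP-dependent kinase Prkg1 (-0.57, adjusted p = 0.0418) and Pts, which makes the cofactor tetrahydrobiopterin (-0.52, adjusted p = 0.0223). Of 13 genes of NADPH supply 1 was lower, the transhydrogenase Nnt (-0.33, adjusted p = 0.0374). Of 18 genes of microsomal electron transfer, Pgrmc1 (-0.55) and Msmo1 (-0.40) were lower and the desaturase Fads2 was higher (0.49, adjusted p = 0.0354). Of 6 oxidase partners 0 were called. The medians of the 8 lists ran from -0.17 to 0.07, beside -0.06 over all genes. Some of these differences were also called under saline, in the same direction. They were Dld (-0.56), Gpx8 (-0.54), Prkg1 (-0.82), Pgrmc1 (-0.46) and Fads2 (0.53), while the other genes named in this paragraph were not called there.

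The genes whose levels followed each called member most closely over the 18 arrays were found by Pearson correlation, as a description without a test, since the arrays share treatment and genotype. For Xdh they were Plin4, a lipid droplet coat protein (r = 0.943), the transcription factor Zbtb16 (0.934) and the triglyceride lipase Pnpla2 (0.932). After removal of the group means the correlations were 0.82, 0.78 and 0.81. The SD of Xdh was 0.80 in transgenic paraquat and 0.45 in transgenic saline, against 0.14 to 0.32 in the other groups. The transgenic arrays therefore weigh most in these 3 values, and the other groups were not looked at alone. Plin4 rose by 3.16 in wild-type, 3.20 in knock-out and 1.34 in transgenic mice, on the log2 scale. For Aox1 they were Lyst, a regulator of lysosome traffic (0.953), the transcriptional repressor Hbp1 (0.923) and Orc6, of the replication origin complex (0.904), with 0.86, 0.86 and 0.51 within groups. For Nrros they were the small Maf factor Mafk (0.924), Dbndd2 (0.921) and Cmtm3 (0.919), with 0.50, 0.64 and 0.41 within groups.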

How the data were processed

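RNA of mouse cerebellum, pooled from 3 mice per array, was measured on 18 Affymetrix arrays. The deposited values are log2 expression per probe set; RMA is named in the submitters' processing notes, with no version, and a genome build is not given in the sources used here. The number of arrays limits the precision. Of 22690 probe sets, 64 were controls, 20380 had 1 gene symbol in the platform annotation, 691 several and 1555 none; only those with 1 were used. Where a gene had several, the one brightest on average stood for it. Genes reaching the 40th percentile on at least 3 arrays were tested (8320 of 12393) with limma 3.58.1 in R 4.3.3 (lmFit and eBayes, 6 group means, 12 residual degrees of freedom, two-sided), with Benjamini-Hochberg adjustment within each of 10 comparisons; a second fit took all 20380 probe sets without the filter. Scripts were tested on simulated data. With 3 arrays a group, the smallest p of an exact permutation test is 0.1. The members, the lists and the tests were chosen with earlier results of these data known. Named genes were all members, up to 4 called genes per list and comparison, and the 3 genes most correlated with each called member. Alternatives were quantile normalisation, no filter or the 60th percentile, averaged probe sets, only the groups compared, array weights, a replicate block and leaving out each array; those for probe sets outside the gene fit, and leaving out knock-out paraquat replicate 2 from comparisons without it, were chosen after seeing the data. Deviations of same-numbered saline and paraquat arrays correlated positively over genes in transgenic (0.16, 0.13 and 0.42) and wild-type mice (0.09, 0.15 and 0.34). This is a hint from the data alone. The block changed no member's call for paraquat against saline in transgenic mice.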

Additional observations from a re-analysis of the deposited data

Results flagged for a closer look

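The paraquat effect on Nrros differed between transgenic and wild-type mice by -1.29 on the log2 scale (SE 0.24, limma adjusted p = 0.0264). It stands here because the difference between the genotypes passed its own test. The call was lost in 10 of 20 alternatives, among them the replicate block over all arrays (adjusted p = 0.0506). Both genotypes moved in the same direction: wild-type arrays lay between 5.78 and 6.32 under saline and between 7.62 and 7.84 under paraquat, and transgenic arrays between 6.04 and 6.55 and between 6.65 and 7.04. In knock-out mice the difference from wild-type was -0.67 (SE 0.24, adjusted p = 0.868).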

How the results depend on the processing

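Of 60 pairs of tested member and comparison, 45 kept their call under every alternative that gave a value, 15 changed it under at least 1, and 0 reversed a called direction. The calls of Nrros and Xdh in wild-type mice and of Nrros in knock-out mice, the averaged calls of Nrros, Xdh and Aox1, and the lower Nrros and Aox1 in transgenic mice under paraquat were among those kept. Changes in members called follow. The filter at the 60th percentile left 3 members to test, and the number called was 1 for paraquat in wild-type (3 before), 1 in knock-out (2 before), 1 averaged (3 before), 1 for transgenic against wild-type under paraquat (3 before) and 0 for the difference of effects (1 before). With array weights it was 4 in knock-out, 1 in transgenic and 4 averaged. For knock-out against wild-type it was then 1 under saline and 1 under paraquat. It was 2 and 5 for transgenic against wild-type, and 2 for the difference of effects of transgenic minus wild-type. Averaging probe sets gave 1 for transgenic against wild-type under saline. Leaving out 1 array at a time gave 2 to 3 in wild-type, 1 to 3 in knock-out, 0 to 1 in transgenic and 3 to 4 averaged. It gave 0 to 1 for knock-out against wild-type under paraquat. It gave 0 to 1 and 2 to 4 for transgenic against wild-type under saline and paraquat, and 0 to 1 for the difference of effects. Of 50 pairs of probe set outside the gene fit and comparison, 1 was called, and 3 with array weights, 2 with the replicate block and 0 to 2 with 1 array left out. The cause of these changes was not tested, except that the stricter filter removed Nrros, Aox1 and Cyba.

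The replicate number was tried as a block. Correlations of same-numbered saline and paraquat arrays were 0.09, 0.15 and 0.34 in wild-type and -0.09, -0.28 and -0.12 in knock-out mice. In transgenic mice they were 0.16, 0.13 and 0.42. Whether these arrays share more than a number was not tested. With the replicate block over all arrays, 0 members were called for the difference of effects (Nrros -1.29, adjusted p = 0.0506), against 1 with the block within genotype (adjusted p = 0.0165); the block changed no other call in the gene fit. Outside it, the block added Nos1 1422949_at in transgenic against wild-type under saline (0.92, adjusted p = 0.0433). For the difference of effects of transgenic minus wild-type, the block over all arrays called 7 genes and the block within genotype 29, against 15. For paraquat against saline in knock-out mice the block within genotype called 296 genes, against 188.

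Over all genes, array weights called 1059 in wild-type, 2173 in knock-out, 2263 averaged, 4112 and 4129 for transgenic against wild-type under saline and paraquat and 687 for the difference of effects, against 166, 188, 407, 529, 1578 and 15. For knock-out against wild-type array weights called 241 under saline and 68 under paraquat, against 2 and 1, and fitting only the groups compared called 108 under saline. Leaving out 1 array gave 1 to 3 and 1 to 12. Fitting only the groups compared called 849 in wild-type and 44 in knock-out. The stricter filter called 107 in wild-type, and quantile normalisation 1165 for transgenic against wild-type under saline. Leaving out 1 array gave 82 to 353 in wild-type, 63 to 614 in knock-out, 108 to 1564 and 828 to 2823 for transgenic against wild-type and 4 to 34 for the difference of effects. Without knock-out paraquat replicate 2, the array that stood apart, Nrros and Xdh were called in knock-out mice as before. Fitting only the groups compared gave no value for the averaged comparison, nor the block within genotype for comparisons between genotypes. Values near the array's floor, such as those of Cybb, limit what can be seen.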
